A study of Mus musculus with 20 samples.

Results

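Hypoxia and glycolysis genes are described here through 10 genes found by name in a table of 54532 mouse genes: Vegfa, Slc2a1, Hk2, Pfkfb3, Ldha, Pgk1, Pdk1, Bnip3, Egln3 and Ankrd37. RNA was sequenced from chondrocytes of the joint cartilage of 6-week-old mice, with 5 libraries in each of 4 groups. For 48 hours the cells had received 2 µM GW3965, a designed compound that switches on the liver X receptors (LXR), 20 µM 25-hydroxycholesterol-3-sulfate (25HC3S), 20 µM 25-hydroxycholesterol (25HC) or DMSO alone (Vehicle). The labels name no strain or genotype, and they do not state whether a group's 5 libraries are 5 animals or cultures, so the p-values rest on a spread among libraries that may be technical in part or in whole. The dose of GW3965 differed from that of both sterols. Levels are in FPKM (sequenced fragments relative to gene length and library size). Of the 10 genes, 9 passed a filter of at least 1 FPKM in at least 5 of the 20 libraries and were tested among 12752 genes; Ankrd37 did not pass.

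Cells short of oxygen stabilise the hypoxia-inducible factors (HIF-1α and HIF-2α), which pair with ARNT and bind DNA at a short core sequence. Their targets import glucose, run glycolysis, turn pyruvate into lactate and hold pyruvate back from the mitochondria, and they also include secreted factors such as VEGF-A. Cartilage has no blood vessels, and chondrocytes are known for living at low oxygen and relying on glycolysis. VEGF-A is also known to be induced by LXR agonists in macrophages.

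The libraries held 14653777 to 19365220 fragments in genes. All 10 chondrocyte markers were tested, with a summed level of 1894 to 5243 FPKM, led by Col2a1. Macrophage markers were present as well, with 10 of 10 tested and a summed level of 326 to 772 FPKM. Osteoblast markers, 4 of 7 tested, summed to 97.1 to 160.8 FPKM, led by Ibsp. Endothelial markers summed to 6.73 to 11.9 FPKM, muscle markers to 4.30 to 11.2 FPKM, adipocyte markers to 15.2 to 58.7 FPKM, and markers of erythroid cells and neutrophils to at most 1.00 FPKM. In these bulk libraries fewer cells of a type and less RNA per cell cannot be told apart. Vehicle replicates 2, 3 and 4 and 25HC3S replicate 1 stood apart from the other 16 libraries. They had 16346 to 19648 detected genes, against 20847 to 21607 in the 16. Mitochondrial genes took 4.07% and 3.60% of fragments in Vehicle replicates 3 and 4 and 3.14% in 25HC3S replicate 1, but 0.369% in Vehicle replicate 2. The 16 other libraries had 0.889% to 1.41%. Each comparison is therefore given over 20 libraries and again over the 16, where Vehicle rests on replicates 1 and 5.

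The sequences just before the gene starts of Vegfa, Pfkfb3, Ldha and Bnip3 are shown because these 4 genes are the ones called different in a comparison over 20 libraries. They come from RefSeq promoters on GRCm38.p6, 250 bases each, read 5′ to 3′ on the strand of the gene. Capitals mark the HIF core letters ACGTG or GCGTG on either strand, with overlapping matches joined into 1 site. The windows are chr17:46032378-46032627 (minus strand) for Vegfa, chr2:11553930-11554179 (minus) for Pfkfb3, chr7:46845554-46845803 (plus) for Ldha and chr7:138909507-138909756 (minus) for Bnip3.
Vegfa: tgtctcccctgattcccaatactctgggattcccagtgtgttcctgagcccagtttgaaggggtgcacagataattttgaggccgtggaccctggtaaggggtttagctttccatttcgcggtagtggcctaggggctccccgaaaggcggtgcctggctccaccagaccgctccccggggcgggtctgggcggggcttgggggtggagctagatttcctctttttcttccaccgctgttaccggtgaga
Pfkfb3: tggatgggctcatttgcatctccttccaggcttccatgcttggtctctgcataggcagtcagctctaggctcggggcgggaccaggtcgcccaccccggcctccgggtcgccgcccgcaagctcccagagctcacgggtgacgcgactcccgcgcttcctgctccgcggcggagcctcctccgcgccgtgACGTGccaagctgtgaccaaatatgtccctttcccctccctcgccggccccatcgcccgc
Ldha: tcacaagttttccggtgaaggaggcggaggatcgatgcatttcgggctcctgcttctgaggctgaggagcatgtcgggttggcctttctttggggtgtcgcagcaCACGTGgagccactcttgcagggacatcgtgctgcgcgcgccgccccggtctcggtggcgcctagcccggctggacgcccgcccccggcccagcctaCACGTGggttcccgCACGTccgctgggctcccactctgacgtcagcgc
Bnip3: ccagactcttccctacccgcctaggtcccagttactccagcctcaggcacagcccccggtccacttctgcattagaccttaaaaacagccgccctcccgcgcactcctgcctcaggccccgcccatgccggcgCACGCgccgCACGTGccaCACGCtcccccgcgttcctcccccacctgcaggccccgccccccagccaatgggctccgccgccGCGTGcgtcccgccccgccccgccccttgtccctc
The Vegfa window held 0 sites, the Pfkfb3 window 1, the Ldha window 3 and the Bnip3 window 4. All 10 genes matched the RefSeq table, with 14 promoters, and 12 of these (85.7%) held at least 1 site, against 38.6% of all 32851 promoters of the same length. At least 2 sites stood in 57.1% of the 14 and in 13.5% of all. The genes were chosen as hypoxia and glycolysis genes, some of the 14 promoters share a gene, and base content was not matched. The shares are therefore a description and not a test. Vegfa, Pfkfb3 and Ldha each have a further RefSeq start, and the window shown is that of the start nearest to the gene's start in the file. That RefSeq start lay 8 bases outside the gene as the file has it for Vegfa, and 13, 148 and 4329 bases inside it for Bnip3, Pfkfb3 and Ldha. The other Vegfa window held 2 sites. A match is a description of letters and not evidence of binding, and 0 matches says only that these letters are not in this window.

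Vegfa encodes VEGF-A, the growth factor that draws in blood vessels (ENSMUSG00000023951, chromosome 17, 46016993 to 46032369, minus strand, GRCm38). Its level was highest with GW3965. Vegfa had 31.6, 34.1, 30.7, 31.8 and 29.2 FPKM in the GW3965 libraries, 11.8, 22.7, 21.6, 24.0 and 21.7 FPKM with 25HC3S, 23.2, 21.8, 19.9, 21.9 and 21.2 FPKM with 25HC, and 23.3, 24.6, 7.80, 9.46 and 21.4 FPKM in Vehicle. Every GW3965 library lay above every other library, and the 3 lowest values were those of 25HC3S replicate 1 and Vehicle replicates 3 and 4.

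Against Vehicle, Vegfa averaged 31.5 ± 1.76 FPKM with GW3965 and 17.3 ± 8.04 FPKM in Vehicle (SD, n = 5 each). The difference was 0.96 ± 0.25 on the log2(FPKM + 1) scale (SE, limma adjusted p = 0.027). Vegfa was the only 1 of the 9 genes called in this comparison, where 6.46% of all genes tested were called and 3.49% were called higher. Among the 16 libraries the difference was 0.47 ± 0.06 (limma adjusted p = 0.00012, with 7.77% of genes called and 3.98% called higher), a ratio of mean FPKM of 1.41 in place of 1.82. Vehicle replicates 3 and 4 had 7.80 and 9.46 FPKM, against 23.3 and 21.4 FPKM in Vehicle replicates 1 and 5. Of the macrophage markers, 0 of 10 were higher and 2 of 10 lower with GW3965 than in Vehicle over 20 libraries, with a summed level of 676 to 762 FPKM with GW3965 against 359.8 to 772 FPKM in Vehicle, and their part in the result was not tested. The Vegfa call ended in a fit of only these 2 groups (limma adjusted p = 0.18) and in one with no filter on low values (limma adjusted p = 0.062). Over 20 libraries it also ended when Vehicle replicate 3 or 4 or GW3965 replicate 1, 2, 3 or 4 was left out, with differences of 0.73 to 1.12 and limma adjusted p of 0.0095 to 0.08 over the 20 fits that left out 1 library.

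Against 25HC, where neither group holds any of the 4 libraries, Vegfa averaged 31.5 ± 1.76 FPKM with GW3965 and 21.6 ± 1.22 FPKM with 25HC (SD, n = 5 each), a difference of 0.52. Its SE was 0.25 over 20 libraries (limma adjusted p = 0.66), since all groups share 1 estimate of the spread, and 0.05 over the 16 (limma adjusted p = 1.6e-06). Against 25HC3S the difference was 0.64 ± 0.25 over 20 libraries (limma adjusted p = 0.22) and 0.47 ± 0.05 over the 16 (limma adjusted p = 5.1e-06). The 3 comparisons share the GW3965 libraries and are not independent of each other. The groups did not overlap for Vegfa in any of them.

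**Figure D1:**
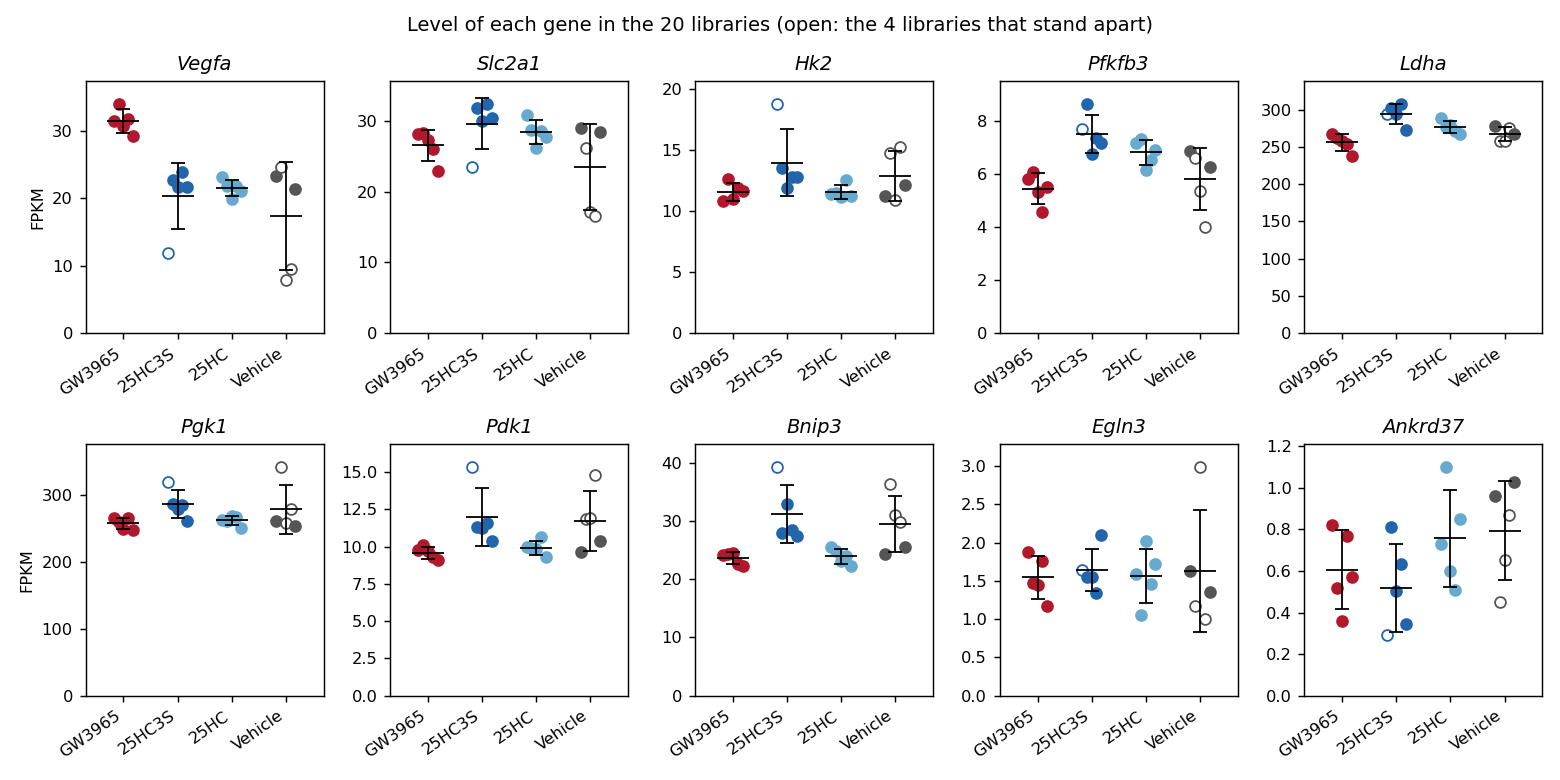
Level in FPKM (vertical axes, linear, from 0) of the 10 genes in the 20 libraries, by group. Points are libraries, open points are Vehicle replicates 2, 3 and 4 and 25HC3S replicate 1, and bars give the mean and SD (n = 5). The 5 GW3965 libraries sit between 29.2 and 34.1 FPKM for Vegfa, above all others.

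Glucose enters through the transporter GLUT1, encoded by Slc2a1 (ENSMUSG00000028645, chromosome 4, 119108711 to 119137983, plus strand). Slc2a1 had 28.2, 28.3, 27.3, 26.0 and 22.9 FPKM with GW3965, 23.5, 31.9, 30.1, 32.4 and 30.4 FPKM with 25HC3S, 30.9, 28.8, 26.2, 28.5 and 27.7 FPKM with 25HC and 29.0, 26.2, 17.1, 16.6 and 28.5 FPKM in Vehicle. All 4 groups overlapped, and Vehicle replicates 3 and 4 were the lowest. No difference of Slc2a1 was called over 20 libraries. Among the 16 it was lower with GW3965 than with 25HC3S, with a difference of -0.23 ± 0.06 (limma adjusted p = 0.0096).

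Hexokinase 2, encoded by Hk2 (ENSMUSG00000000628, chromosome 6, 82725025 to 82774454, minus strand), traps glucose in the cell as its phosphate. It averaged 11.6 ± 0.731 FPKM with GW3965, 13.9 ± 2.75 FPKM with 25HC3S, 11.5 ± 0.572 FPKM with 25HC and 12.8 ± 2.03 FPKM in Vehicle (SD, n = 5 each). The highest value was 18.7 FPKM in 25HC3S replicate 1, and the other 4 libraries of that group had 11.9 to 13.5 FPKM. Hk2 was not called in any comparison over 20 or 16 libraries.

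Pfkfb3 (ENSMUSG00000026773, chromosome 2, 11471433 to 11554077, minus strand) makes fructose 2,6-bisphosphate, the strongest activator of phosphofructokinase 1. It had 5.81, 6.04, 5.29, 4.55 and 5.50 FPKM with GW3965 and 7.67, 8.63, 6.73, 7.35 and 7.15 FPKM with 25HC3S. It had 7.14, 7.32, 6.15, 6.50 and 6.88 FPKM with 25HC and 6.87, 6.59, 5.34, 3.99 and 6.23 FPKM in Vehicle. All GW3965 libraries lay below all libraries of both sterols, while GW3965 and Vehicle overlapped. The difference between GW3965 and 25HC3S was -0.40 ± 0.10 (limma adjusted p = 0.029), with a mean 27.5% lower with GW3965. Between GW3965 and 25HC it was -0.28 ± 0.10 (limma adjusted p = 0.34), and -0.28 ± 0.07 over the 16 libraries (limma adjusted p = 0.013).

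Pgk1 and Ldha had the highest FPKM of the 10 genes in every group. Phosphoglycerate kinase 1, encoded by Pgk1 (ENSMUSG00000062070, chromosome X, 106187100 to 106203699, plus strand), forms ATP in the second part of glycolysis. Pgk1 averaged 257 ± 8.64 FPKM with GW3965, 286 ± 21.1 FPKM with 25HC3S, 262 ± 7.03 FPKM with 25HC and 279 ± 36.8 FPKM in Vehicle (SD, n = 5 each). Vehicle replicate 2 at 342 FPKM and 25HC3S replicate 1 at 319.6 FPKM were the 2 highest libraries. Pgk1 was called in 1 comparison, over the 16 libraries: -0.11 ± 0.03 for GW3965 minus 25HC3S (limma adjusted p = 0.030).

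Ldha (ENSMUSG00000063229, chromosome 7, 46841475 to 46855627, plus strand) encodes the main subunit of the lactate dehydrogenase that turns pyruvate into lactate. It had 267, 263, 259, 255 and 238 FPKM with GW3965 and 295, 303, 295, 308 and 273 FPKM with 25HC3S. It had 289, 277, 280.3, 271 and 268 FPKM with 25HC and 278, 258, 258, 276 and 268 FPKM in Vehicle. All GW3965 libraries were below all libraries of both sterols. The difference between GW3965 and 25HC3S was -0.20 ± 0.05 (limma adjusted p = 0.031), a mean 13.1% lower, and that between GW3965 and 25HC was -0.11 ± 0.05 (limma adjusted p = 0.64). Ldha and Pgk1 have processed pseudogenes in the table, and how the counting shared fragments among such copies is not given in the sources used here, so their levels are uncertain to that extent. Ldha-ps2 had 1.14 to 6.34 FPKM and Pgk1-rs7 0.693 to 2.05 FPKM over the 20 libraries.

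Pdk1 and Bnip3 act at the mitochondrion. Pyruvate dehydrogenase kinase 1, encoded by Pdk1 (ENSMUSG00000006494, chromosome 2, 71873224 to 71903858, plus strand), shuts off the enzyme complex that feeds pyruvate to the citric acid cycle. Pdk1 had 9.78, 10.1, 9.73, 9.29 and 9.10 FPKM with GW3965, 15.4, 11.3, 11.2, 11.6 and 10.4 FPKM with 25HC3S, 9.94, 9.90, 9.84, 10.6 and 9.30 FPKM with 25HC and 9.63, 11.9, 11.9, 14.8 and 10.4 FPKM in Vehicle. Every GW3965 library was below every 25HC3S library, and the highest values came from 25HC3S replicate 1 and Vehicle replicate 4. The difference between GW3965 and 25HC3S was -0.28 ± 0.10 over 20 libraries (limma adjusted p = 0.14) and -0.20 ± 0.04 over the 16 (limma adjusted p = 0.0035).

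Bnip3 (ENSMUSG00000078566, chromosome 7, 138890836 to 138909519, minus strand) encodes an outer-membrane protein that marks mitochondria for removal. It had 24.1, 24.3, 24.5, 22.6 and 22.3 FPKM with GW3965, 39.3, 27.9, 32.9, 28.4 and 27.5 FPKM with 25HC3S, 25.4, 24.7, 23.1, 23.9 and 22.2 FPKM with 25HC and 24.4, 36.3, 31.0, 29.9 and 25.5 FPKM in Vehicle. All 5 libraries with 25HC3S were above all libraries with GW3965 and with 25HC, and 3 of the 5 Vehicle libraries, replicates 2, 3 and 4, were as high as those with 25HC3S. The difference between GW3965 and 25HC3S was -0.38 ± 0.10 (limma adjusted p = 0.038), a mean 24.5% lower, and over the 16 libraries it was -0.29 ± 0.05 (limma adjusted p = 0.00078).

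Egln3 and Ankrd37 are strong hypoxia targets in many cells and were low here. Egln3 (ENSMUSG00000035105, chromosome 12, 54178981 to 54203860, minus strand) encodes a prolyl hydroxylase that marks HIF-α for destruction. It averaged 1.54 ± 0.279 FPKM with GW3965, 1.64 ± 0.276 FPKM with 25HC3S, 1.57 ± 0.355 FPKM with 25HC and 1.63 ± 0.795 FPKM in Vehicle (SD, n = 5 each), on 42 to 119 fragments a library. No difference was called, and the 95% interval for GW3965 minus Vehicle ran from -0.33 to 0.31. Ankrd37 (ENSMUSG00000050914, chromosome 8, 45996902 to 46005707, minus strand), an ankyrin-repeat protein gene, averaged 0.607 ± 0.189 FPKM with GW3965, 0.517 ± 0.212 FPKM with 25HC3S, 0.757 ± 0.233 FPKM with 25HC and 0.793 ± 0.238 FPKM in Vehicle (SD, n = 5 each). With 7 to 31 fragments a library its groups overlapped, and small differences were not detectable at this depth.

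**Figure D2:**
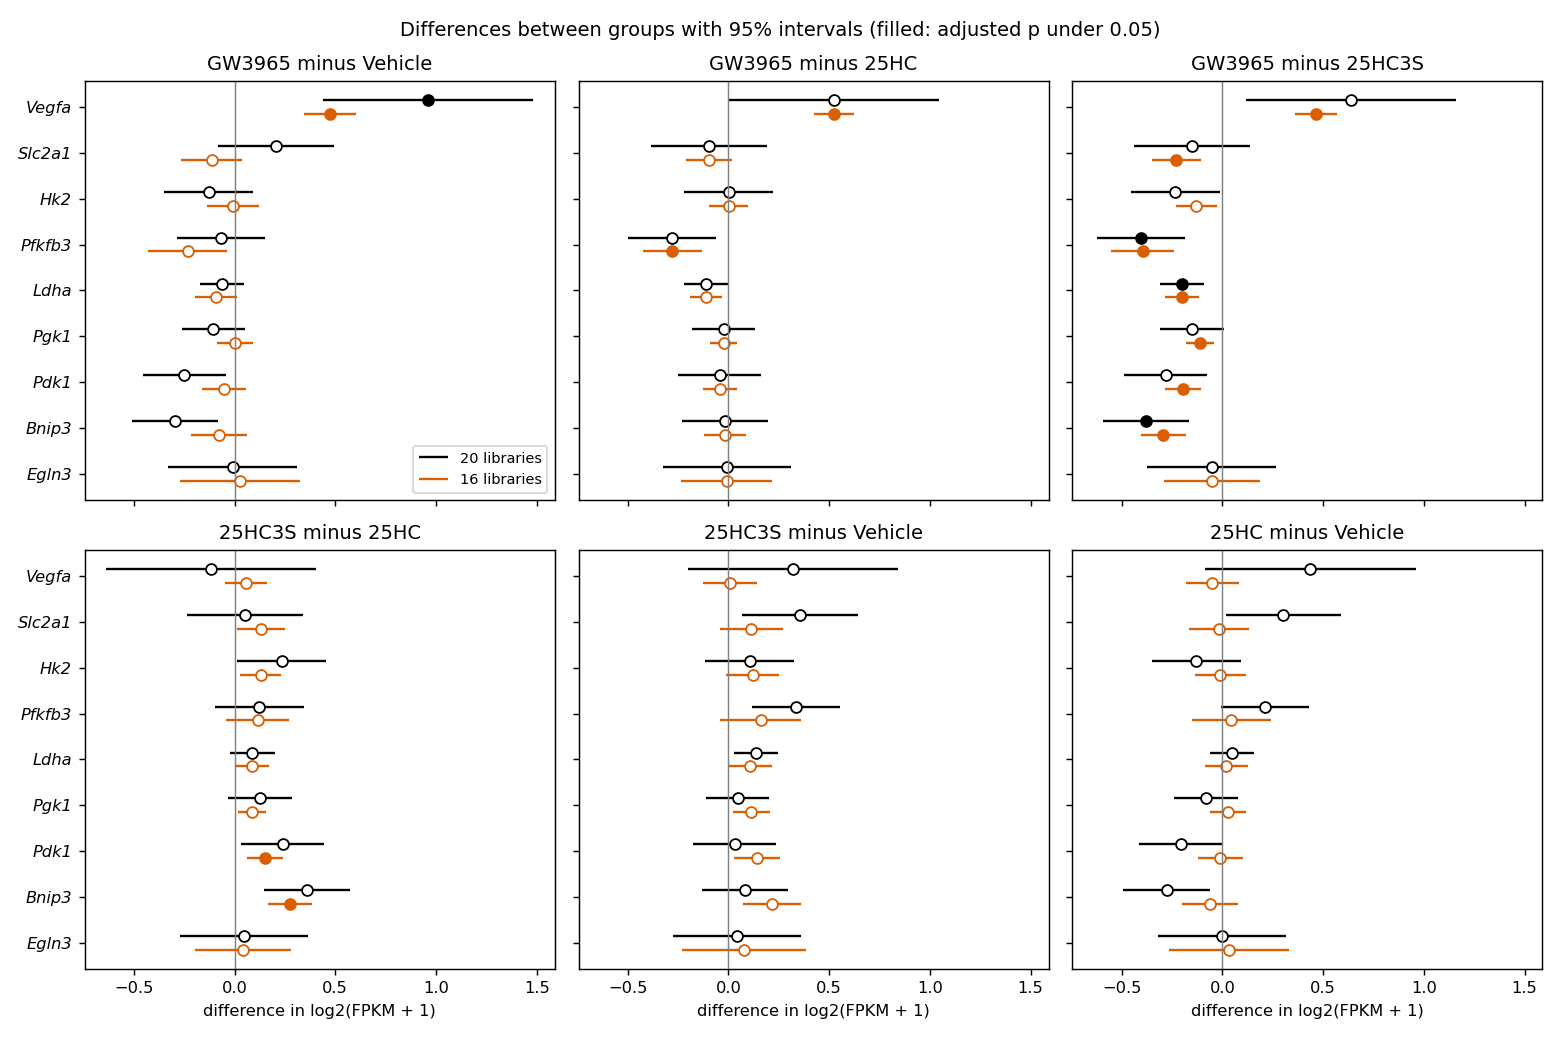
Difference in log2(FPKM + 1) between groups (horizontal axes) for the 9 tested genes, with 95% intervals from limma, over 20 libraries (black) and over the 16 (orange). Filled points have an adjusted p under 0.05. Vegfa stands to the right and most other genes to the left in the comparison of GW3965 with 25HC3S.

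The comparison of GW3965 with 25HC3S, at doses of 2 and 20 µM, gave the most calls among these genes. Over 20 libraries 3 of 9 were lower with GW3965 (Pfkfb3, Ldha and Bnip3), where 4.63% of all genes were called and 2.13% were called lower. Groups did not overlap for 5 of the 9 (those 3, Pdk1 and Vegfa), against 12.2% of all genes. Over the 16 libraries 6 were lower (Slc2a1, Pfkfb3, Ldha, Pgk1, Pdk1 and Bnip3) and 1, Vegfa, was higher, where 17.9% of all genes were called, 8.59% as lower and 9.27% as higher. The groups then did not overlap for 6 of the 9 (the 5 above and Slc2a1), against 17.6% of all genes. The median difference of the 9 was -0.20 over 20 libraries and -0.20 over the 16, against 0.00 for all genes tested in both. With 1 library left out, Pfkfb3 was called in 13 of 20 such fits, Ldha in 13 and Bnip3 in 11, and the sign was the same in each. With the replicate number as a block only Pfkfb3 of the 3 was called (limma adjusted p = 0.0061 for Pfkfb3, 0.051 for Ldha and 0.054 for Bnip3). With no filter on low values none of the 3 was called (limma adjusted p = 0.061 for Pfkfb3, 0.098 for Ldha and 0.070 for Bnip3). Without GW3965 replicate 3, 4 or 5 the count was 0, and without GW3965 replicate 2 or any of 25HC3S replicates 1 to 4 it was 1. Macrophage markers differed in the same comparison, with 4 of 10 higher and 1 of 10 lower with GW3965 over 20 libraries and a summed level of 676 to 762 FPKM with GW3965 against 326 to 574 FPKM with 25HC3S. With the 16 libraries 7 of 10 were higher and 1 of 10 lower. Of adipocyte markers 1 of 4 tested was higher with GW3965 over 20 libraries and 2 of 4 over the 16, at a summed level of 32.9 to 47.9 FPKM with GW3965 against 15.2 to 33.1 FPKM with 25HC3S. Of chondrocyte markers 0 of 10 were called over 20 libraries and 3 of 10 were higher over the 16, at a summed level of 4046 to 5005 FPKM with GW3965 against 2601 to 3937 FPKM with 25HC3S. Muscle markers had 1 of 3 higher in both fits, and osteoblast markers 1 of 4 lower over the 16. The part of these markers in the result was not tested.

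Against Vehicle, Vegfa was the 1 gene of the 9 called with GW3965, as given above. The remaining 8 had differences of -0.29 (Bnip3, limma adjusted p = 0.080) to 0.21 (Slc2a1, limma adjusted p = 0.28), and their groups overlapped, while 7.07% of all genes had groups that did not overlap. With the 16 libraries the differences of the 8 ran from -0.23 for Pfkfb3 (limma adjusted p = 0.16) to 0.03 for Egln3. Slc2a1 then had -0.11 in place of 0.21. Groups did not overlap for 4 of the 9 (Vegfa, Slc2a1, Pfkfb3 and Ldha), against 24.2% of all genes, with only Vehicle replicates 1 and 5 left. Without Vehicle replicate 1 the calls among the 9 over the other 19 libraries were 3, and without Vehicle replicate 5 or 25HC3S replicate 1 they were 2.

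Against 25HC, GW3965 gave 0 calls among the 9 over 20 libraries, where 1.74% of genes were called and 3 of the 9 had an unadjusted p under 0.05 (957 of all genes did). Groups did not overlap for Vegfa, Pfkfb3 and Ldha, 3 of 9 against 11.1% of all genes. With the 16 libraries Vegfa was higher and Pfkfb3 lower with GW3965, where 13.1% of genes were called, 6.3% as higher and 6.82% as lower. The dose was 2 µM for GW3965 and 20 µM for 25HC, so these values describe the treatments as given.

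25HC3S and 25HC were compared at the same dose and time, and they differ by a sulfate group on the hydroxyl at position 3. Bnip3 had the largest difference of the 9: its mean was 31.2 ± 5.03 FPKM with 25HC3S and 23.9 ± 1.28 FPKM with 25HC (SD, n = 5 each), with no overlap. The difference was 0.36 ± 0.10 over 20 libraries (limma adjusted p = 0.16) and 0.28 ± 0.05 over the 16 (limma adjusted p = 0.0040). Pdk1 was called too over the 16, at 0.15 ± 0.04 (limma adjusted p = 0.038). Calls among the 9 were 0 over 20 libraries, where 0.816% of genes were called and 3 of the 9 had an unadjusted p under 0.05 (908 of all genes did), and 2 over the 16, where 7.18% were called and 2.49% were higher. Of all genes, 7.29% had groups that did not overlap over 20 libraries and 10.2% over the 16, where Bnip3 was again the 1 gene of the 9.

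The other 7 genes did not pass between 25HC3S and 25HC, and their intervals bound the difference. Over the 16 libraries the 95% interval ran from -0.05 to 0.16 for Vegfa, 0.01 to 0.25 for Slc2a1, 0.03 to 0.23 for Hk2, -0.04 to 0.27 for Pfkfb3, 0.00 to 0.17 for Ldha, 0.02 to 0.16 for Pgk1 and -0.20 to 0.28 for Egln3. All 9 differences were positive there, as were those of 6946 of the 12752 genes tested. Over 20 libraries 8 of the 9 were positive, and 6544 of the 12752. Vegfa then had -0.12 with an interval of -0.64 to 0.40. Of the macrophage markers 3 of 10 were lower with 25HC3S and 1 of 10 higher over 20 libraries, and 6 and 1 over the 16, at a summed level of 326 to 574 FPKM against 533 to 746 FPKM with 25HC. Of adipocyte markers 1 of 4 tested was lower with 25HC3S over 20 libraries and 2 of 4 over the 16, at a summed level of 15.2 to 33.1 FPKM with 25HC3S against 36.4 to 58.7 FPKM with 25HC. All 10 chondrocyte markers had a negative difference in both fits, and 2 of them were called lower over the 16, at a summed level of 2601 to 3937 FPKM with 25HC3S against 3876 to 4260.1 FPKM with 25HC. Osteoblast markers had 1 of 4 lower over the 16. The part of these markers in the result was not tested.

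25HC3S against Vehicle gave 0 calls among the 9 in both fits, where 1.61% of genes were called over 20 libraries and 3.95% over the 16. Over 20 libraries 3 of the 9 had an unadjusted p under 0.05, as had 2183 of all genes, and no gene of the 9 had groups that did not overlap (2.16% of all genes). All 9 differences were positive, as were those of 6882 of the 12752 genes tested. The differences of the 9 ran from 0.03 for Pdk1 to 0.36 for Slc2a1 (limma adjusted p = 0.21), with 0.34 for Pfkfb3 (limma adjusted p = 0.13). Their range over the 16 libraries was from 0.01 for Vegfa to 0.22 for Bnip3 (limma adjusted p = 0.091), and 4 of the 9 (Slc2a1, Pgk1, Pdk1 and Bnip3) had groups that did not overlap, against 27.6% of all genes. Without Vehicle replicate 1 the count of calls was 1. Of the macrophage markers 3 of 10 were lower with 25HC3S and 1 of 10 higher over 20 libraries, and 4 and 1 over the 16. Of adipocyte markers 0 of 4 tested were called over 20 libraries and 2 of 4 were lower over the 16. The part of these markers in the differences was not tested.

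25HC against Vehicle also gave 0 calls among the 9, where 0.0392% of genes were called over 20 libraries and 0.0235% over the 16. Over 20 libraries 3 of the 9 had an unadjusted p under 0.05, as had 3863 of all genes, and none had groups that did not overlap (2.33% of all genes). The differences ran from -0.28 for Bnip3 (limma adjusted p = 0.15) to 0.44 for Vegfa (limma adjusted p = 0.22). Differences in the 16 libraries lay between -0.06 for Bnip3 and 0.05 for Pfkfb3, with 0 of 9 genes and 10.3% of all genes without overlap, and the Vegfa difference was -0.05 ± 0.06. Without Vehicle replicate 1 or 5 the count of calls over the other 19 libraries was 1.

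**Figure D3:**
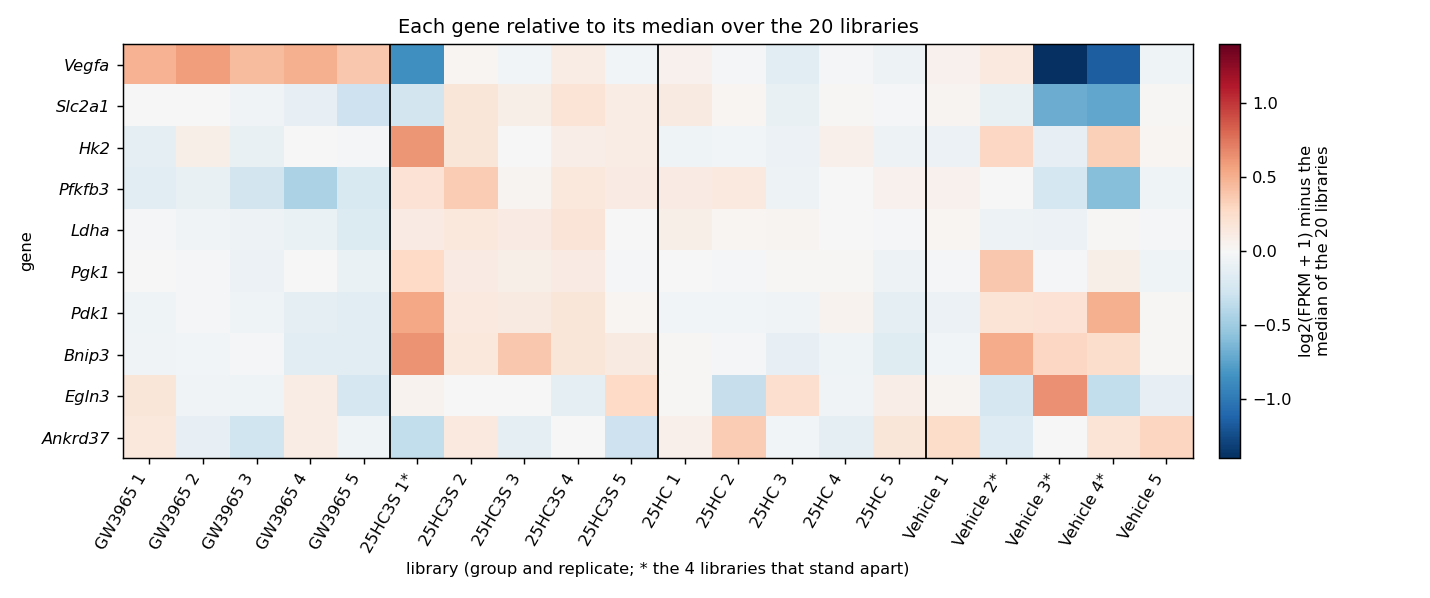
Colour gives log2(FPKM + 1) of each gene minus its median over the 20 libraries, with genes down the page and libraries across it. Asterisks mark the 4 libraries that stand apart, where Vegfa is low in 3 and Bnip3 and Pdk1 are high in all 4.

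The 4 libraries did not move these genes as a block. Relative to the remaining libraries of its own group, Vegfa deviated by -1.41 and -1.16 log2 units in Vehicle replicates 3 and 4, by -0.87 in 25HC3S replicate 1 and by 0.13 in Vehicle replicate 2. Slc2a1 deviated by -0.72, -0.76, -0.39 and -0.13 in the same order. Bnip3 deviated upwards in all 4, by 0.30, 0.25, 0.42 and 0.53, and so did Pdk1, by 0.23, 0.53, 0.43 and 0.23. Ldha stayed within 0.08 in each, and Pgk1 reached 0.41 in Vehicle replicate 2.

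Within the 16 libraries, the 7 genes of glucose use and the mitochondrion (Slc2a1, Hk2, Pfkfb3, Ldha, Pgk1, Pdk1 and Bnip3) varied together. All 21 of their pairs had a positive Pearson r over the 16 libraries, from 0.37 to 0.88 with a median of 0.69. With group means removed, 19 of the 21 were positive with a median of 0.39. Vegfa had a negative r with each of the 7 over the 16 libraries, from -0.67 to -0.15, and a positive r with each of the 7 once group means were removed, from 0.20 to 0.82 with a median of 0.45. Egln3 had r of -0.09 to 0.14 with the others. These values describe 16 libraries that share treatments and are given without a test. The 21 pairs come from 7 genes and are not independent, and r was not computed over pairs of other genes.

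The mean z-score of the 9 genes was -1.17 to 0.08 with GW3965 and 0.52 to 1.21 in the 4 libraries with 25HC3S. It was -0.54 to 0.16 with 25HC and -0.24 to -0.15 in Vehicle, and in each group replicate 5 had the lowest score. Among the 5 other genes whose level followed that score most closely over the 16 libraries were Cxcl14 (Pearson r 0.91, Spearman rho 0.85), Pfkl (Pearson r 0.89, Spearman rho 0.84) and Apln (Pearson r 0.88, Spearman rho 0.82). Pfkl encodes the liver-type subunit of phosphofructokinase, a glycolytic enzyme outside the 10 genes.

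Other genes of the pathway were taken from lists of related genes. Of 17 further glycolysis genes, 1 was called with GW3965 against Vehicle, a share near the 6.46% of all genes called: Aldoc, an aldolase, averaged 4.40 FPKM with GW3965 and 2.44 FPKM in Vehicle (difference 0.66 ± 0.08, limma adjusted p = 4.5e-05). Aldoc was also higher with GW3965 than with 25HC (0.64) and with 25HC3S (1.05), and lower with 25HC3S than in Vehicle (-0.39) and with 25HC (-0.41). Over 20 libraries 0 of the 17 were lower with GW3965 than with 25HC3S, where 2.13% of all genes were. With 16 libraries 6 of the 17 were lower and 1, Aldoc, was higher, against 8.59% of all genes lower and 9.27% higher. Pfkl was among those 6 (-0.30 ± 0.06, limma adjusted p = 0.0025), as was Slc16a3, which exports lactate (-0.34 ± 0.08, limma adjusted p = 0.0090). Between 25HC3S and 25HC over the 16 libraries, Slc16a1, another carrier of lactate, was higher at 0.22, and Slc2a3, a second glucose transporter, was lower at -0.28. Over 20 libraries 0 of the 17 were higher there and 1, Aldoc, was lower, where 0.816% of all genes were called. The median of the 17 for GW3965 minus 25HC3S over the 16 libraries was -0.11, against 0.00 for all genes. Gapdh had 1.39 to 26.4 FPKM over the 20 libraries; it has many near-identical pseudogenes, so its level is uncertain, and it was named after its values were seen.

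Of 22 further HIF targets, 4 were higher and 0 lower with GW3965 against Vehicle, where 6.46% of all genes were called and 3.49% were higher. Angptl4, a lipase inhibitor that is also a PPAR target, had a difference of 1.39 ± 0.28 (limma adjusted p = 0.0044), Bhlhe40, a transcriptional repressor, 0.63 ± 0.09, Stc2 0.55 ± 0.16 and Pfkfb4 0.34 ± 0.09. Without the 4 libraries Stc2 had 0.19 ± 0.06 (limma adjusted p = 0.063) and Pfkfb4 0.14 ± 0.09 (limma adjusted p = 0.45), and neither was called. Over the 16 libraries 7 were higher (3.98% of all genes were), Angptl4 at 0.70, Ddit4, an inhibitor of mTORC1, at 0.50, Bhlhe40 at 0.42 and Ero1l, an oxidase of the endoplasmic reticulum, at 0.27 among them. Ero1l had 37.9, 37.0 and 38.1 FPKM in Vehicle replicates 2, 3 and 4, which are left out there. These lay above the 32.9 to 35.6 FPKM of the GW3965 libraries. Over all 5 libraries of each group Ero1l averaged 34.3 FPKM with GW3965 and 33.9 FPKM in Vehicle. The median of the 22 was 0.29 over 20 libraries and 0.09 over the 16, against 0.02 and 0.01 for all genes. In GW3965 against 25HC3S 1 was higher and 1 lower over 20 libraries, where 4.63% of all genes were called. Over the 16 libraries 4 were higher and 3 lower, against 9.27% and 8.59% of all genes. Angptl4 (0.64), Ddit4 (0.44) and Pfkfb4 (0.40) were higher, and Fam162a and Ak4, an adenylate kinase, were both lower at -0.22. Against 25HC, 0 of the 22 were called with GW3965 over 20 libraries, where 1.74% of all genes were. Over the 16 libraries 7 of the 22 were higher and 2 lower, against 6.3% and 6.82% of all genes. Angptl4 at 0.68, Bhlhe40 at 0.33, Ddit4 at 0.27 and Ndufa4l2 at -0.23 were among them. Between 25HC3S and 25HC 4 of the 22 were higher over the 16 libraries, where 2.49% of all genes were: Ak4 at 0.22, Ero1l at 0.17, Bnip3l at 0.14 and Lox at 0.12, and over 20 libraries Ak4 alone (0.26 ± 0.05, limma adjusted p = 0.023).

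**Figure D4:**
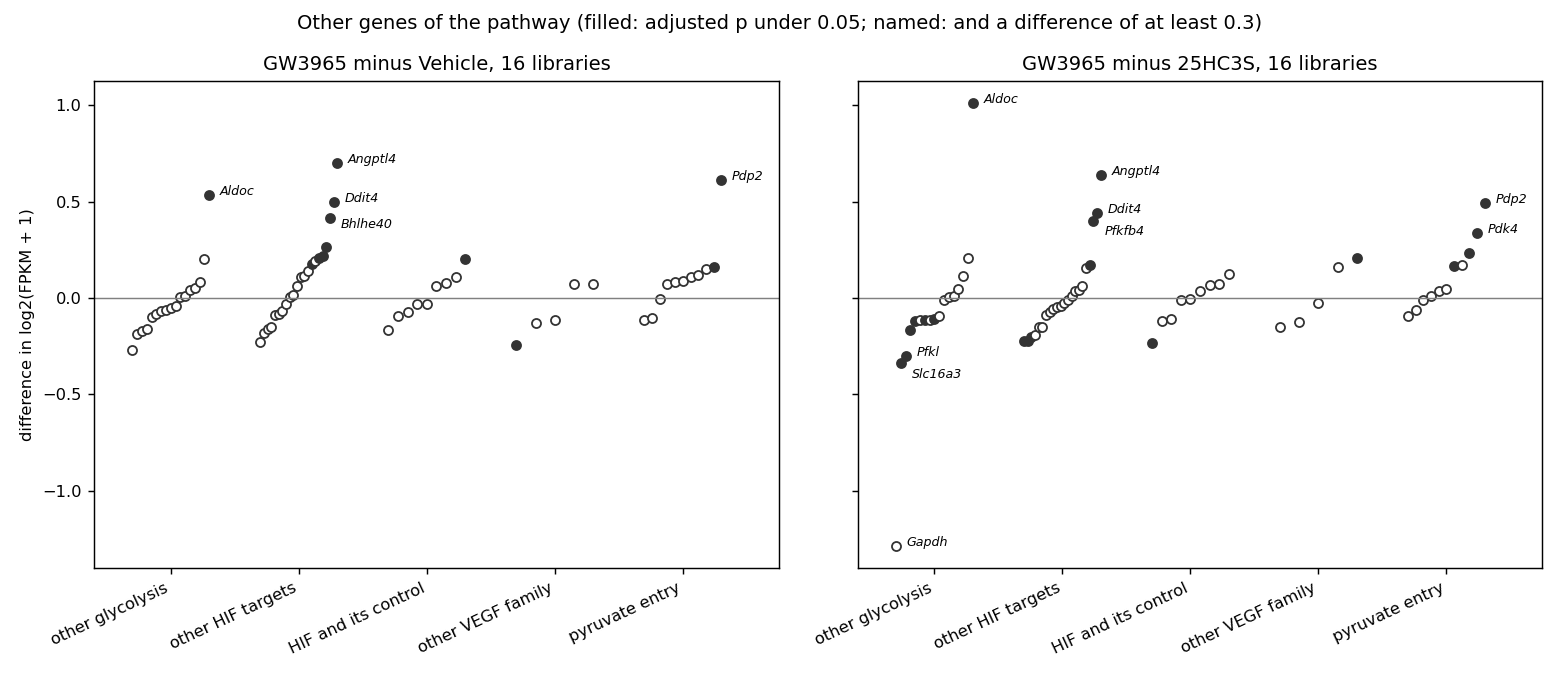
Difference in log2(FPKM + 1) (vertical axes) of genes in 5 lists of the wider pathway, over the 16 libraries, for GW3965 minus Vehicle (left) and GW3965 minus 25HC3S (right). Each point is a gene, ordered by its difference within a list; filled points have an adjusted p under 0.05, and those with a difference of at least 0.3 are named, with Gapdh, which was not called. Aldoc and Angptl4 are at or near the top of both panels.

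Of 9 tested genes of HIF and its control, 1 was called with GW3965 against Vehicle over 20 libraries, where 6.46% of all genes were called. That was Egln1, the main oxygen-sensing hydroxylase, at -0.27 ± 0.07 (limma adjusted p = 0.034), and over the 16 libraries Epas1, which encodes HIF-2α, was the 1 called instead (0.20 ± 0.06, limma adjusted p = 0.035), where 7.77% of all genes were called. For GW3965 minus 25HC3S over the 16 libraries 1 of the 9 was lower, where 8.59% of all genes were lower. Hif1a, which encodes HIF-1α, averaged 66.6 ± 2.69 FPKM with GW3965, 68.2 ± 16.4 FPKM with 25HC3S, 61.2 ± 3.18 FPKM with 25HC and 83.3 ± 28.7 FPKM in Vehicle (SD, n = 5 each) and was not called in any comparison of either fit. HIF-1α is controlled mainly at the level of the protein, which was not measured. Of 5 tested genes of the VEGF family and its receptors, Nrp2, a co-receptor, was the 1 called with GW3965 against Vehicle over 20 libraries, and was lower (-0.29 ± 0.06, limma adjusted p = 0.0051). Nrp2 among the 16 libraries was lower with GW3965 than in Vehicle (-0.25) and with 25HC (-0.19), and with 25HC3S than in Vehicle (-0.22) and with 25HC (-0.17). For 25HC3S minus 25HC, 2 of the 5 were lower over the 16 libraries, Nrp2 among them, where 7.18% of all genes were called. For GW3965 minus 25HC3S 1 of the 5 was higher over the 16, where 9.27% of all genes were higher. Over 20 libraries 0 of the 5 were called for GW3965 minus 25HC, 25HC3S minus Vehicle or 25HC3S minus 25HC. Of 11 genes that govern pyruvate entry into mitochondria, 0 were called with GW3965 against Vehicle over 20 libraries. Over the 16 libraries 2 were higher with GW3965, where 3.98% of all genes were higher. They were Pdp2, a phosphatase that opposes the pyruvate dehydrogenase kinases (0.61 ± 0.08, limma adjusted p = 0.00016), and Dld (0.16 ± 0.04). Pdp2 had 3.01 and 2.71 FPKM in Vehicle replicates 3 and 4, which are left out there, within the 2.53 to 3.02 FPKM of the GW3965 libraries. Dld had 27.8, 26.8 and 30.8 FPKM in Vehicle replicates 2, 3 and 4, above the 23.9 to 26.4 FPKM of the GW3965 libraries. Over all 5 libraries of each group Dld averaged 25.3 FPKM with GW3965 and 26.1 FPKM in Vehicle, so its higher level holds only without those replicates. With 16 libraries 4 of the 11 were higher with GW3965 than with 25HC3S, against 9.27% of all genes. These were Pdp2 at 0.49, Pdk4, another of the kinases, at 0.34, Pdha1, a subunit of the pyruvate dehydrogenase complex, at 0.23 and Dld at 0.16, and over 20 libraries Pdp2 alone was called (0.48 ± 0.12, limma adjusted p = 0.018).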

How the data were processed

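RNA-seq was done on 20 libraries, 5 a group. Trizol extraction and a fast RNA-seq library kit are named, per the labels' protocols. CASAVA 1.8 and HISAT2 2.0.5 are the tools named per the submitters' processing notes. Which program counted fragments, and whether by strand, is not given in the sources used here, nor is the build. The authors deposited 1 table of FPKM per gene with gene coordinates and lengths. Of its gene identifiers 99.77% were in GENCODE M21, and 98.33% had the same coordinates there, on GRCm38, which is therefore the build used. FPKM times gene length was a whole multiple of 1 step per library, within 0.02, which gave the fragments behind each value.

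Differences in log2(FPKM + 1), a scale that understates changes of low genes, were tested by limma 3.58.1 under R 4.3.3. Genes with at least 1 FPKM in at least 5 libraries were kept, and fits that left out libraries used the same 12752 genes. All libraries entered 1 fit with a mean for each group and empirical Bayes moderation along a trend. The 6 differences were tested two-sided with Benjamini-Hochberg adjustment over all genes within a comparison, and called at an adjusted p under 0.05. Errors are SD for levels and SE for differences, and intervals are 95% intervals. The code was tested on simulated data. Fragments are not independent molecules, so depth covers counting error only.

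The 10 genes, the lists and the setting apart of 4 libraries were chosen with earlier results of these data known. Of each list and comparison, up to 4 called genes with the largest difference could be named, and the 5 genes most like the mean z-score by Pearson r, of which 2 are not reported here. Alternatives were a pseudocount of 0.1, no filter, only the 2 groups compared, the replicate number as a block, library weights, median-ratio scaling, the 16 libraries and leaving out each library. Shared replicate numbers are not stated to mark a shared source.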

Additional observations from a re-analysis of the deposited data

Results flagged for a closer look

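Among 40 gene-and-group sets of 5 libraries, 6 had a highest or lowest library whose gap to the next, divided by the range of the group, was above Dixon's 95% critical value of 0.71. Chance alone marks about 1 in 20 sets. Of the 6, 4 were the same library, 25HC3S replicate 1: Vegfa was lowest there at 11.83 FPKM, with the next library at 21.64 FPKM. Slc2a1 was lowest there at 23.49 FPKM, with the next at 30.08 FPKM. Hk2 was highest there at 18.74 FPKM, with the next at 13.48 FPKM, and Pdk1 was highest at 15.37 FPKM, with the next at 11.6 FPKM. Pgk1 was highest in Vehicle replicate 2 at 342.2 FPKM, with the next at 279.1 FPKM. Hk2 was highest in 25HC replicate 4 at 12.54 FPKM, with the next at 11.48 FPKM, the 1 of the 6 outside the 4 libraries that stand apart.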

How the results depend on the processing

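None of the 4 called differences of the 9 genes changed sign in any alternative run; of the other 50, 16 changed sign in at least 1, in 49 of 1458 fits in all. Counts of called genes among the 9 moved in these alternatives. Without the filter, GW3965 minus Vehicle gave 0 (Vegfa limma adjusted p = 0.062) and GW3965 minus 25HC3S gave 0. With only the 2 groups compared, GW3965 minus Vehicle gave 0 (Vegfa limma adjusted p = 0.18) GW3965 minus 25HC gave 2, and GW3965 minus 25HC3S gave 4, with Vegfa added (limma adjusted p = 0.032). With library weights, 25HC3S minus 25HC gave 2, GW3965 minus 25HC gave 3 and GW3965 minus 25HC3S gave 7, and without the 4 libraries they gave 2, 2 and 7. The share of all genes called in these 3 comparisons was 7.18%, 13.1% and 17.9% without the 4 libraries. Over 20 libraries it was 0.816%, 1.74% and 4.63%. Calls in the lists of other pathway genes, 16 over all comparisons, were 27 with only the 2 groups compared, 64 with library weights and 62 without the 4 libraries. Shares of all genes called are not given here for the other alternatives, leaving out 1 library included. The counts alone therefore do not set these genes apart from the rest. Over all genes tested, deviations of same-numbered libraries from their group means had correlations of -0.70 to 0.27 (median -0.011). Libraries of different numbers had -0.675 to 0.632. These group means include the 4 libraries that stand apart, so the correlations cannot decide whether the numbers pair libraries. The mean z-score of the 9 genes over the 16 libraries was lowest in replicate 5 of each group, and a shared source was not tested. With the replicate block GW3965 minus 25HC3S had 1 call, Pfkfb3 (limma adjusted p = 0.0061). Ldha then had limma adjusted p = 0.051 and Bnip3 0.054.

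Leaving out 1 library gave 0 to 1 calls for 25HC minus Vehicle and for 25HC3S minus Vehicle, 0 to 3 for GW3965 minus Vehicle and for GW3965 minus 25HC3S, 0 to 0 for 25HC3S minus 25HC and for GW3965 minus 25HC, and 13 to 54 in the other lists (54 without Vehicle replicate 1, 44 without Vehicle replicate 5, 25 without Vehicle replicate 2).

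Signs that turned were all of differences that were not called. For 25HC minus Vehicle they were Vegfa (-0.02 with weights, -0.05 without the 4), Slc2a1 (-0.02 without the 4), Pgk1 (0.01 with weights, 0.03 without the 4) and Egln3 (0.02 with a pseudocount of 0.1, 0.08 with weights, 0.03 without the 4). For GW3965 minus Vehicle they were Slc2a1 (-0.08 with weights, -0.11 without the 4), Pgk1 (0.00 without the 4) and Egln3 (0.01 with a pseudocount of 0.1, 0.06 with weights, 0.03 without the 4). For 25HC3S minus 25HC Vegfa had 0.05 with weights and 0.06 without the 4. With 1 library left out, values ran from -0.18 to 0.06 for Vegfa in 25HC3S minus 25HC, 0.00 to 0.16 for Bnip3 and -0.05 to 0.11 for Pdk1 in 25HC3S minus Vehicle, and -0.04 to 0.00 for Bnip3 and -0.03 to 0.03 for Hk2 in GW3965 minus 25HC. Egln3 ran from -0.09 to 0.16 in 25HC minus Vehicle, -0.04 to 0.21 in 25HC3S minus Vehicle, -0.10 to 0.15 in GW3965 minus Vehicle, -0.03 to 0.11 in 25HC3S minus 25HC, -0.09 to 0.05 in GW3965 minus 25HC and -0.10 to 0.01 in GW3965 minus 25HC3S. The cause was not tested. Egln3 and Ankrd37 are limited by depth.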
